A study of Mus musculus with 8 samples.

Results

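Trp63, Krt5, Krt14, Krt15, Krt17 and Krt6a are genes by which basal epithelial cells are commonly recognised. They were chosen by symbol, with earlier results of these data known, and all 6 were found among the 24346 genes listed for each library. The libraries hold total RNA of adipose-derived stem cells (ADSCs), which the labels call mesenchymal stem cells of adipose tissue in primary culture, from wild-type (WT) BALB/c mice. The methods of the study describe adult males and gonadal fat. Cells of mice 2, 3, 4 and 5 were grown as monolayers (2D, 4 libraries), and cells of mice 1, 4, 5 and 7 as organotypic cultures in Matrigel, a basement membrane gel (3D, 4 libraries). Each library is 1 culture of 1 mouse, so mice 4 and 5 gave both cultures and the other mice gave 1 each. The study grew 3D cultures with and without media conditioned by Wnt3a- and R-Spondin1-producing cells. Which of these media the sequenced cultures received, and their passage, are not given in the sources used here.

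Basal cells are the layer of a stratified or pseudostratified epithelium that rests on the basement membrane, as in epidermis, airway, prostate and epididymis. They hold the progenitors of the layers above. Trp63 encodes p63, a transcription factor of the p53 family that is needed to form and keep this layer and that acts on many keratin and adhesion genes. Keratins form filaments of paired type I and type II chains. Krt5 (type II) and Krt14 (type I) are the pair of the basal layer, and Krt15 is a further type I keratin of basal and hair follicle stem cells. Krt6a and Krt17 are a type II and a type I keratin of skin appendages and of activated keratinocytes after injury. Simple, single-layered epithelia use Krt8 and Krt18 with Krt7 and Krt19 in their place, and fibroblast-like stromal cells use vimentin rather than keratins.

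The values are FPKM, fragments scaled to transcript length and library size, so that genes may be set side by side. The depth, read from the steps between low values, was estimated at 15240000 to 18200000 fragments per library. At that depth 3 fragments of Trp63 were worth 0.0332 FPKM in 2D mouse 2. Limits, fragment numbers and the intervals of ratios cover counting error only, not the spread between mice. Stromal markers did not bear out the label in 3D. The summed level of the 12 stromal genes was 2172 to 5495 FPKM in the 2D libraries and 5.21 to 10.2 FPKM in the 3D libraries, whereas the epithelial cadherin Cdh1 was at 0 to 0.725 FPKM in 2D and 227 to 305 FPKM in 3D. The 3D library of mouse 1 stands apart from the other 3D libraries for 5 of the 6 basal genes, and its short name in the labels ends in 13 where those of the others end in 3D, although its title and group give 3D. What the 13 stands for is not stated. Results are therefore given with and without it. In bulk RNA, fewer cells of a type and less RNA per cell cannot be told apart.

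Trp63 lies on the plus strand of chromosome 16 (GRCm38, chr16:25683763-25892102) and has 8 transcripts in GENCODE, which include forms from separate promoters that these gene-level values do not separate. Its level was 0 FPKM in 2D mouse 2, 0.0126 in mouse 3, 0.0124 in mouse 4 and 0.0262 in mouse 5, which is at most 2.34 estimated fragments. In 3D it was 106 FPKM in mouse 1, 7.28 in mouse 4, 0.29 in mouse 5 and 0.9 in mouse 7. The cultures did not overlap. The lowest 3D library still held 22.8 estimated fragments, and within mouse 4 and within mouse 5 the 3D library was the higher one. The 3D mean was 28.5 FPKM ± 51.5 (SD, n = 4), and 2.82 FPKM ± 3.87 (SD, n = 3) without mouse 1. The ratio of 3D to 2D rests on 9039 fragments, 8324 of them from mouse 1, against 5. It was 2029 (95% Clopper-Pearson interval 869 to 6250.3), and without mouse 1 it was 212 (90.3 to 654). These intervals cover counting error only, not the spread between mice. Of the 715 fragments in 3D without mouse 1, mouse 4 held 616, mouse 7 75.5 and mouse 5 22.8. The SD among the 3D libraries exceeded their mean with and without mouse 1.

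Krt5 lies on the minus strand of chromosome 15 (chr15:101707070-101712898). It was at 0.0289, 0, 0 and 0.0292 FPKM in 2D (mice 2, 3, 4 and 5), which is at most 1.01 estimated fragments. In 3D it was 271 FPKM in mouse 1, 0.218 in mouse 4, 0.0663 in mouse 5 and 0.431 in mouse 7. Mouse 1 held 8257 estimated fragments of Krt5, while the other 3D libraries held 2.02 to 14. The level in mouse 1 was 629 times that of the next 3D library, the widest such gap among the 6 genes. The 3D mean of 68 FPKM ± 135 (SD, n = 4) therefore describes 1 library, and without it the mean was 0.239 FPKM ± 0.183 (SD, n = 3). The ratio of 3D to 2D rests on 2 fragments in 2D. It was 4647 (95% Clopper-Pearson interval 1286 to 38374) with mouse 1 and 17 (4.2 to 149) without it, where the intervals cover counting error only.

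The sequence upstream of Krt5 is shown because p63 and Krt5 did not keep a common ratio across the 3D libraries. It is the 250 bases before the RefSeq start, written 5′ to 3′ on the minus strand (GRCm38.p6, chr15:101712906-101713155), with capitals marking the p53 family half-site, a 10-base motif.
Krt5 upstream: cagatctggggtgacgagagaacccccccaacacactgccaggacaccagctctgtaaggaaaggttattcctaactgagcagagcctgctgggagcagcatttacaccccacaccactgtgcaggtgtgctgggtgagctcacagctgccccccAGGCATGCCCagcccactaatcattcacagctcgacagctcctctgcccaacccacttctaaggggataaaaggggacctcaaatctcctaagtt
The half-site begins 95 bases before the start. On either strand, such a half-site was found in 1.63% of 32817 mouse promoter windows of this length. The AP-2 motif GCCNNNGGC (both strands, in 13.7% of windows) and TATAAA (both strands, in 12.4%) are not among these letters. The half-site overlaps no match of the other motifs, and a match is a description of letters, not of binding. Promoter windows were matched for 2 of the 6 genes, and the one for Krt14 is not printed since it begins inside the annotated gene.

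Krt14, the partner of Krt5, lies on the minus strand of chromosome 11 (chr11:100203162-100207548). Its 2D levels were 0, 0.853, 0.453 and 0.08 FPKM in mice 2, 3, 4 and 5, and its 3D levels were 54.7, 4.16, 0.273 and 0.759 FPKM in mice 1, 4, 5 and 7. The cultures overlapped, since the 2D libraries of mice 3 and 4 lay above the 3D library of mouse 5. The mean was 0.347 FPKM ± 0.391 (SD, n = 4) in 2D and 15 FPKM ± 26.6 (SD, n = 4) in 3D, or 1.73 FPKM ± 2.12 (SD, n = 3) without mouse 1. Within mouse 4 the level went from 0.453 to 4.16 FPKM, and within mouse 5 from 0.08 to 0.273 FPKM. Krt14 and Trp63 put the 3D libraries in the same order, mouse 1, then 4, 7 and 5, whereas Krt5 was higher in mouse 7 than in mouse 4.

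Krt15 lies 67.2 kb from Krt14 on the same strand (chr11:100131758-100135928). It was 0, 0.298, 0.218 and 0 FPKM in 2D (mice 2, 3, 4 and 5), and 15.1, 0.617, 0.131 and 0 FPKM in 3D (mice 1, 4, 5 and 7). Only mouse 1 stood clear of the 2D range by a wide margin, with 346 estimated fragments against 15.2 in mouse 4. The 3D mean of 3.97 FPKM ± 7.45 (SD, n = 4) became 0.249 FPKM ± 0.325 (SD, n = 3) without mouse 1, beside 0.129 FPKM ± 0.152 (SD, n = 4) in 2D. That difference is smaller than the spread between the libraries.

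Krt17 (chr11:100256217-100261029, minus strand) was the most evenly spread of the 6 genes over the 3D libraries. It was at 0.0443 FPKM in 2D mouse 2, or 1.05 estimated fragments, and at 0 in the other 2D libraries. In 3D it was 6.28 FPKM in mouse 1, 0.287 in mouse 4, 1.88 in mouse 5 and 0.47 in mouse 7. The cultures did not overlap, and mouse 5, the lowest 3D library for Trp63, Krt5 and Krt14, came next after mouse 1. The 3D mean was 2.23 FPKM ± 2.79 (SD, n = 4), and 0.879 FPKM ± 0.871 (SD, n = 3) without mouse 1. Against the 1 fragment in 2D, the ratio was 208 (95% Clopper-Pearson interval 36.8 to 8245), or 81.4 (14 to 3272) without mouse 1. Both intervals leave out the spread between mice.

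Krt6a (chr15:101689910-101694307, minus strand) was at 0 FPKM in the 4 2D libraries, which allows up to 0.0835 FPKM, the worth of 3 fragments. It was 15.4 FPKM in 3D mouse 1, 0.633 in mouse 4, 0 in mouse 5 and 0.149 in mouse 7. The 3D mean of 4.05 FPKM ± 7.58 (SD, n = 4) was at least 48.5-fold above this limit, and 0.261 FPKM ± 0.331 (SD, n = 3) without mouse 1 at least 3.12-fold. The cultures met at 0, since the 3D library of mouse 5 also had it at 0. Its values are uncertain because its neighbour Krt6b, 9.62 kb away, shares much of its sequence. Of the 100-base windows of its coding sequence, 44.4% occur unchanged in another keratin, against 3.05% for Krt5, 3.4% for Krt14 and 0 for Krt15 and Krt17. The longest run shared with Krt6b is 280 bases of the first coding exon (GENCODE M21 transcript, GRCm38, chr15:101693936-101694215), written 5′ to 3′ on the minus strand in lower case without capitals, since every base is shared.
Krt6a shared with Krt6b: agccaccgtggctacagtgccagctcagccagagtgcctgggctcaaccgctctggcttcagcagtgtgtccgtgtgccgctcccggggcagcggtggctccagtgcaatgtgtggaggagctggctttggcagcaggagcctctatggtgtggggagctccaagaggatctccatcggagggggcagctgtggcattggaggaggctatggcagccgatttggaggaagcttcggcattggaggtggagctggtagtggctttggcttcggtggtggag
Fragments from such a run could be given to either gene. Krt6b was at 1.58 FPKM in 3D mouse 1 and at most 0.0305 FPKM in the others, so that the pair together followed the order of Krt6a.

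**Figure D1:**
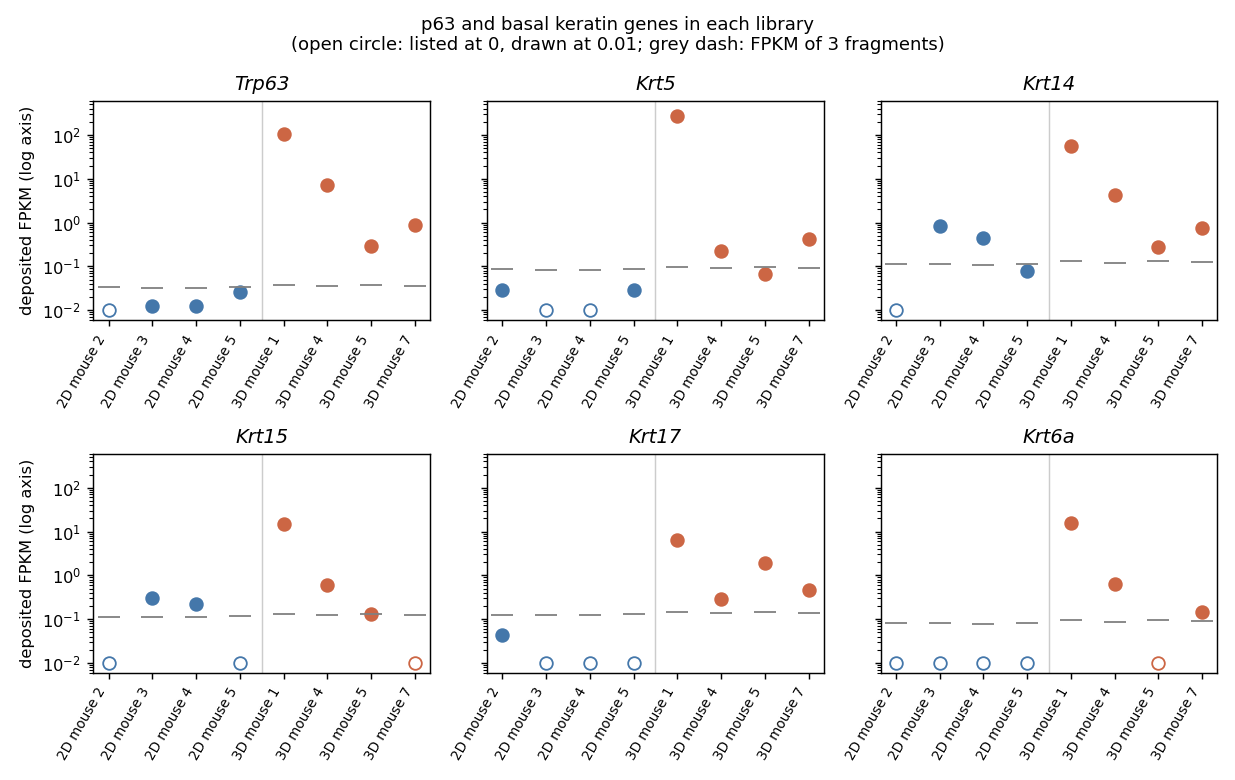
Deposited FPKM (log axis) of the 6 basal genes in each of the 8 libraries, with 1 point per library, open circles for values of 0 (drawn at 0.01) and a grey dash at the worth of 3 fragments. The 3D library of mouse 1 is the highest point for each gene, from 6.28 FPKM for Krt17 to 271 FPKM for Krt5, and the cultures overlap or meet for Krt14, Krt15 and Krt6a.

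Side by side, 3 of the 6 genes had 3D libraries that all lay above the 2D libraries (Trp63, Krt5 and Krt17). Among all 18862 genes tested, 21.6% had such values and 20.9% the opposite. For Krt5 the gap was within counting error. Its lowest 3D library, mouse 5, held 2.02 estimated fragments, below the limit of 3, against at most 1.01 in 2D. On the log2(FPKM + 1) scale after quantile normalization, the difference of the group means was 2.8 for Trp63, 2.27 for Krt5, 1.94 for Krt14, 1.03 for Krt15, 1.22 for Krt17 and 1.22 for Krt6a. The median of these was 1.58, beside 0.0012 over all genes tested, and it was 0.48 without mouse 1. These numbers are a description and carry no test, since the genes were chosen with this contrast in view.

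The 3D libraries expressed the 6 genes unevenly. The coefficient of variation over the 4 3D libraries was 181% for Trp63, 199% for Krt5, 177% for Krt14, 188% for Krt15, 125% for Krt17 and 187% for Krt6a. Mouse 1 held 92.6% of the FPKM summed over the 3D libraries for Trp63, 99.7% for Krt5, 91.3% for Krt14, 95.3% for Krt15, 70.4% for Krt17 and 95.2% for Krt6a. On the log2 scale the SD over the 3D libraries ran from 1.08 for Krt17 to 4.04 for Krt5. Among 12076 genes with a 3D mean of at least 1 FPKM, the median SD was 0.23 and the 90th percentile 0.73. From 95.3% (Krt17) to 99.7% (Krt5) of these genes had a smaller SD than the basal gene in question.

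**Figure D2:**
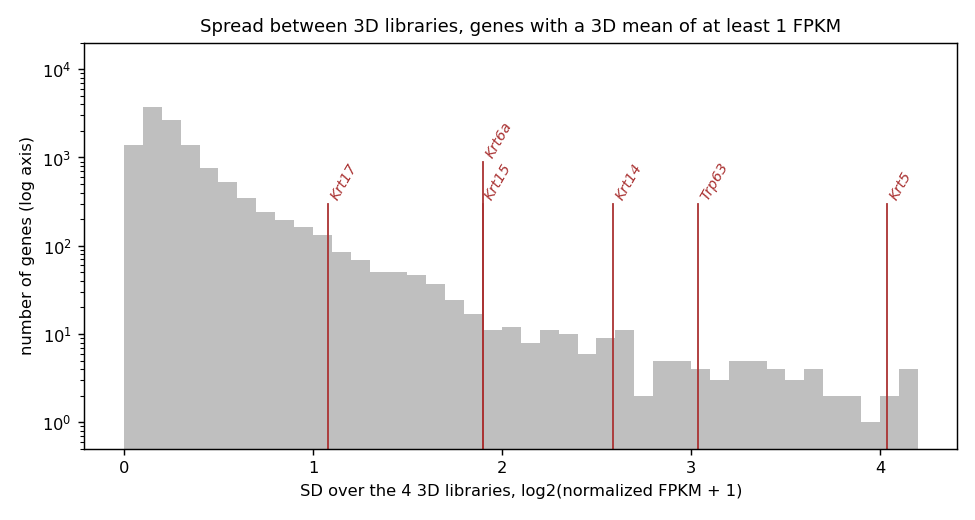
Histogram (number of genes on a log axis) of the SD over the 4 3D libraries of log2(normalized FPKM + 1) for 12076 genes with a 3D mean of at least 1 FPKM, with lines at the 6 basal genes. The median gene has an SD of 0.23, and the 6 lines stand in the right tail, from 1.08 for Krt17 to 4.04 for Krt5.

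Several other epithelial genes did not share this unevenness. Krt8, a keratin of simple epithelia, was at 448, 486, 475 and 458 FPKM in 3D (mice 1, 4, 5 and 7), a coefficient of variation of 3.64%. Tfap2a, which encodes the epithelial transcription factor AP-2 alpha, was at 13 to 13.6 FPKM in these libraries, with a coefficient of variation of 2.1%. The corresponding value was 13.1% for Cdh1 and 9.7% for the integrin gene Itga3. These genes were named here after their values were seen. In these 4 genes mouse 1 lay below the highest other 3D library.

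**Figure D3:**
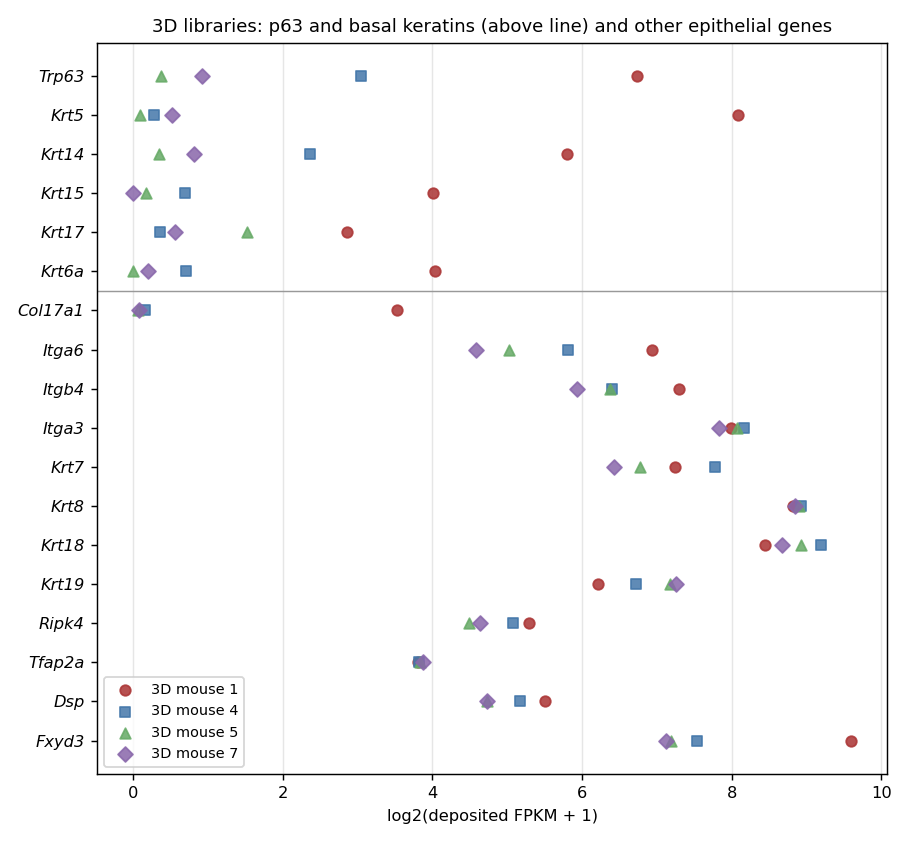
Level as log2(deposited FPKM + 1) of each gene in the 4 3D libraries, with 1 marker per library, for the 6 basal genes (above the line) and for further epithelial genes that were chosen after their values were seen. The markers of the 6 basal genes spread widely, with mouse 1 farthest to the right, while those of Krt8 (448 to 486 FPKM) and Tfap2a (13 to 13.6 FPKM) lie close together.

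The genes also kept no common ratio. Trp63 was at 0.39 times the level of Krt5 in the 3D library of mouse 1, 33.4 times in mouse 4, 4.37 times in mouse 5 and 2.09 times in mouse 7. Krt5 was at 4.95 times the level of its partner Krt14 in mouse 1 but at 0.0525 times in mouse 4, 0.243 times in mouse 5 and 0.568 times in mouse 7. Among the 3D libraries, mouse 1 was thus the 1 in which Krt5 exceeded both Trp63 and Krt14. The ratios of mice 5 and 7 rest on few Krt5 fragments (2.02 and 14), and that of mouse 4 on 7.15.

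Set against the other keratins, the basal ones were a minor part in all but 1 library. The files list 52 keratin genes, of which 19 were at 0 in every library. Krt5, Krt14, Krt15, Krt17 and Krt6a together made up 25.7% of the summed keratin FPKM in 3D mouse 1. The share was 0.42% in mouse 4, 0.192% in mouse 5 and 0.163% in mouse 7, and 0.0849% to 0.58% in the 2D libraries. By share these 3D libraries thus lay within the 2D range, but by level they did not. The 5 basal keratins summed to 5.91, 2.35 and 1.81 FPKM in 3D mice 4, 5 and 7, above the 0.0732 to 1.15 FPKM of the 2D libraries. The sum over all keratins was 1108 to 1409 FPKM in 3D and 44 to 790 FPKM in 2D. Krt7, Krt8, Krt18 and Krt19 made up 72.2% of it in the 3D library of mouse 1 and 98.8% to 99.6% in the other 3D libraries. In mouse 1 the basal keratins were therefore present beside those of simple epithelia, with 16 keratin genes at 1 FPKM or more against 5 to 7 in the other 3D libraries.

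**Figure D4:**
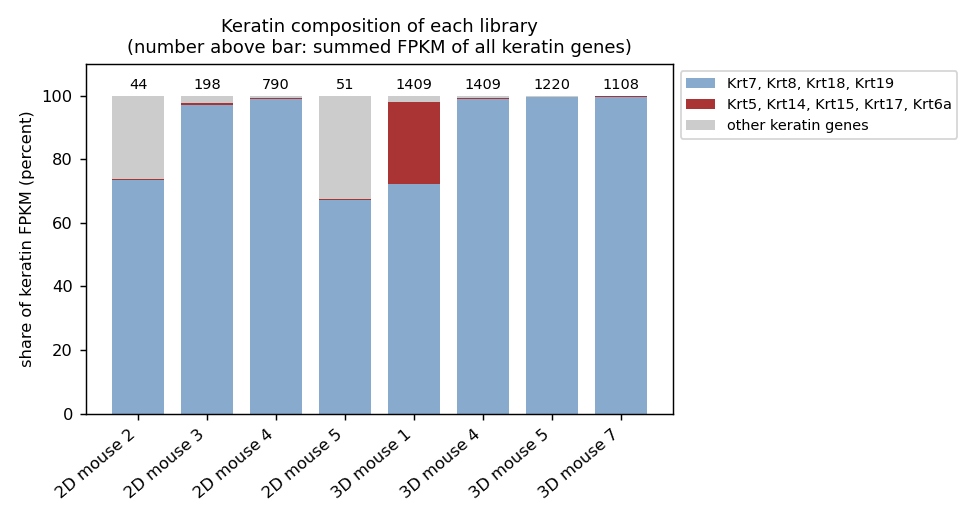
Share in percent of the summed keratin FPKM in each of the 8 libraries, as stacked bars for Krt7, Krt8, Krt18 and Krt19, for the 5 basal keratins and for the other keratins, with the sum in FPKM above each bar. The basal part is 25.7% of the bar in the 3D library of mouse 1 and at most 0.58% in the others.

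To ask how particular mouse 1 was, genes were counted whose level in 1 3D library lay more than 3 log2 units above that in each of the other 3D libraries. There were 75 such genes in mouse 1 (0.398% of genes tested), 15 in mouse 4 (0.0795%), 8 in mouse 5 (0.0424%) and 7 in mouse 7 (0.0371%). They included 5 of the 6 basal genes in mouse 1, and 0 in the others. As the 6 genes were chosen with earlier results of these data known, this count and the ranks below describe them and carry no test. Krt17 had a smaller gap, 3.34 times the next library in FPKM. By the size of this gap Krt5 ranked 10 among all genes in mouse 1, Trp63 35, Krt14 40, Krt6a 51, Krt15 53 and Krt17 354. The ranks above Krt5 were taken by genes of small RNAs under 300 bases, whose FPKM is uncertain.

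Beyond the 6 genes, 89 genes of 7 lists around the basal layer were tested, of which 32 rose and 13 fell in 3D at an adjusted p below 0.05 (limma, Benjamini-Hochberg over 18862 genes). The background, for these counts and for each list below, was 21.2% of all genes higher and 20.3% lower. Without the 3D library of mouse 1 the counts were 29 and 13. The 89 include 6 keratins of simple epithelia and 8 smooth muscle genes of myoepithelial cells, and without both lists 29 of 75 rose and 6 fell. With the mouse as a block, which rests on mice 4 and 5 and leaves 1 residual degree of freedom, 0 genes passed in either direction, and 17 higher and 11 lower had an unadjusted p below 0.05 (2833 and 2383 of all genes). The lists were written with earlier results of these data known, so these counts describe them.

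Hemidesmosomes anchor basal cells to the basement membrane. Of 12 genes of this structure and the basal lamina, 4 rose (among them Itga6, Itgb4 and Itga3), 3 fell (Dst, Plec and Col7a1) and 5 did not pass, with a median log2 difference of 0.93. Itgb4, the integrin chain specific to hemidesmosomes, was at 0.0579 to 1.19 FPKM in 2D and at 157, 83.1, 81.7 and 60 FPKM in 3D (mice 1, 4, 5 and 7), a log2 difference of 6.15 ± 0.38 (SE, adjusted p = 1.54e-05, limma). Itga3 went from 30.1 FPKM ± 30.6 to 258 FPKM ± 25.1 (SD, n = 4 each), a log2 difference of 4.32 ± 0.9 (SE). Dst, which encodes the plakin dystonin, went the other way, from 56.8 FPKM ± 5.07 to 17.8 FPKM ± 4.66 (SD, n = 4 each). Col7a1, the collagen of anchoring fibrils, also fell, with a log2 difference of -3.14 ± 0.74 (SE). Col17a1, the transmembrane collagen of hemidesmosomes, shared with the 6 genes only the peak in 3D mouse 1. It was at 0.0853 to 0.177 FPKM in 2D, 10.5 FPKM in 3D mouse 1 and 0.05 to 0.117 FPKM in the other 3D libraries (adjusted p = 0.462, limma). Without mouse 1 its log2 difference was -0.1 (adjusted p = 0.0339, with a range of 0.0339 to 0.594 over the alternatives). Lamb3, which encodes a laminin chain of the basal lamina, was at 14.4, 2.12, 0.391 and 0.6 FPKM in mice 1, 4, 5 and 7 and did not pass the test (adjusted p = 0.225, limma). Col17a1 and Lamb3 were named after their values were seen.

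Of 22 relatives, regulators and target genes of p63, 16 rose, 1 fell and 5 did not pass, with a median log2 difference of 2.2. Ripk4, a kinase of keratinocyte differentiation, was at 0 to 0.196 FPKM in 2D and 38.1, 32.8, 21.4 and 23.9 FPKM in 3D (mice 1, 4, 5 and 7), a log2 difference of 4.94 ± 0.22 (SE, adjusted p = 3.13e-06, limma). Ripk4 was thus within a range of less than 2-fold over the 3D libraries, in which Trp63 itself ran from 0.29 to 106 FPKM. Snai2, a transcription factor of basal and mesenchymal cells, fell from 18.8 FPKM ± 6.91 to 0.747 FPKM ± 0.787 (SD, n = 4 each). Fgfr3, a growth factor receptor chosen after its values were seen, was at 88.7 FPKM in mouse 1 and at 8.73 to 13.5 FPKM in the other 3D libraries. Sox2 was at 2.01 FPKM and Trp73, which encodes the p53 relative p73, at 0.715 FPKM in 3D mouse 1, and each was at most 0.0377 FPKM in the other libraries. Both were also chosen after their values were seen.

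Of 20 basal cell surface and marker genes tested, 5 rose (among them Bcam, Serpinb5, Fxyd3 and Dsp), 2 fell (Pdpn and Egfr) and 13 did not pass. The median log2 difference was 0.46, and among all genes 21.2% rose and 20.3% fell. Fxyd3, a regulator of the sodium pump, was at 771, 184, 145 and 138 FPKM in 3D (mice 1, 4, 5 and 7) and at most 1.09 FPKM in 2D. Pdpn, which encodes podoplanin, a protein of basal cells and of many stromal and mesothelial cells, fell from 189 FPKM ± 67.5 to 16.9 FPKM ± 7.53 (SD, n = 4 each). Egfr, a growth factor receptor of basal keratinocytes and many other cells, fell by 0.58 log2 units, near the threshold (adjusted p = 0.046, limma, 0.00289 to 0.565 over the alternatives). Ngfr, the nerve growth factor receptor that marks airway and other basal cells, was at 0.0174 to 0.0341 FPKM in 2D and at 8.73, 3.78, 0.0409 and 0.038 FPKM in 3D (mice 1, 4, 5 and 7). It did not pass the test (adjusted p = 0.168, limma) and was named after its values were seen.

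Suprabasal and cornification genes belong to the layers that basal cells give rise to. Of 19 tested, 4 rose (Krt4, Tgm1, Evpl and Ppl), 0 fell and 15 did not pass. The median log2 difference was 0.02, and the share that rose was near the 21.2% over all genes. Ppl and Evpl encode periplakin and envoplakin, proteins of the cornified envelope that are also found at desmosomes. Ppl was at 0.0561 to 13.2 FPKM in 2D and 15.8 to 37.2 FPKM in 3D, and Evpl at 0.0367 to 0.377 and 2.35 to 4.81 FPKM. Ivl went the other way without passing (log2 difference -2.35, adjusted p = 0.187, limma). It was at 1.2, 19.9, 136 and 0.945 FPKM in 2D (mice 2, 3, 4 and 5) and at 0.269 to 5.78 FPKM in 3D. Sbsn (means of 8.06 and 3.49 FPKM) and Casp14 (0.584 and 0.098 FPKM) were also lower in 3D, while Sprr1a (3.55 and 21.9 FPKM) was higher. None of them passed, and all were named after their values were seen. Krt13, the keratin of inner stratified epithelium such as oral mucosa, was at 0.105 to 1.13 FPKM in 2D, 9.7 FPKM in 3D mouse 1, 0.113 in mouse 4 and 0 in mice 5 and 7. Krt4, which pairs with Krt13, was at 0 in 2D and at 0.681, 6.04, 1.84 and 1.3 FPKM in 3D, so that its lowest 3D library was the one highest in Krt13. Its call (adjusted p = 0.0239, limma) was lost without 2D mouse 2 or 3D mouse 5 (0.0502 and 0.0508). The wound keratins Krt6b and Krt16 (2 genes, 0 passing, median log2 difference 0.33) were at 0 in 2D, and Krt16 was at 1.41, 0.0918, 0.341 and 0 FPKM in 3D (mice 1, 4, 5 and 7).

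Among the keratins of simple epithelia, Krt7, Krt8 and Krt19 rose, Krt20 fell, and Krt18 and Krt23 did not pass (6 genes, median log2 difference 3.07). Krt8 rose by 5.94 ± 1.73 log2 units (SE, adjusted p = 0.0268, limma) and Krt7 by 4.31 ± 0.93. The 2D libraries were unlike in these genes, with Krt8 at 0, 27.8, 296 and 0.0363 FPKM in mice 2, 3, 4 and 5. The call for Krt8 was lost without any 1 of 6 libraries (2D of mice 2 and 5, each 3D library; adjusted p 0.0513 to 0.0621, and 0.00271 to 0.385 over all alternatives). Krt18 was at 105 FPKM ± 136 in 2D and 456 FPKM ± 102 in 3D (SD, n = 4 each, adjusted p = 0.0519, limma) and passed without the 2D library of mouse 3 (0.0391) or of mouse 4 (0.0162) and when genes averaging under 1 FPKM were left out (0.0335). Krt19 rose by 1.82 ± 0.49 log2 units (SE, adjusted p = 0.019, limma). That call was lost on the values as deposited (adjusted p = 0.0567) and without 2D mouse 2 or 5 or 3D mouse 5 or 7 (0.0513 to 0.0518). All alternatives together spanned 0.0011 to 0.397. Krt20 fell from 3.16 FPKM ± 1.88 to 0.722 FPKM ± 0.891 (SD, n = 4 each), a call lost without 2D mouse 2 or 5 or 3D mouse 4, 5 or 7 (adjusted p 0.0506 to 0.0689). Krt23 was at 4.66 FPKM in 3D mouse 1 and at most 0.397 FPKM in the others, the same library as for the basal keratins. Krt80, a type II keratin found in many epithelia, was at 5.14, 1.65, 3.32 and 11.7 FPKM in 2D (mice 2, 3, 4 and 5) and at 5.5, 1.7, 0.842 and 0.312 FPKM in 3D (adjusted p = 0.125, limma), and it passed as lower without 3D mouse 1 (adjusted p = 0.0387).

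Myoepithelial cells are contractile basal cells of glands that carry Krt5 and Krt14 together with smooth muscle proteins. Of 8 such muscle genes, 0 rose, 6 fell and 2 did not pass, with a median log2 difference of -5.76. Acta2, which encodes smooth muscle actin, was at 698 to 2619 FPKM in 2D and 0.387 to 1.08 FPKM in 3D, where mouse 1 had 1.08 FPKM. Tagln was at 1004 to 2901 FPKM in 2D and 0.497 to 1.16 FPKM in 3D. The 3D libraries thus had both genes near or below 1 FPKM. Mylk, also of this list and named after its values were seen, went the other way without passing. It was at 1.12 to 11.6 FPKM in 2D and 7.91 to 21.1 FPKM in 3D, a log2 difference of 1.49 (adjusted p = 0.0535, limma, 0.0101 to 0.248 over the alternatives). Contractile stromal cells carry Acta2 and Tagln too, and the 12 stromal genes fell with them (0 rose, 11 fell, 1 did not pass, median log2 difference -4.65).

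**Figure D5:**
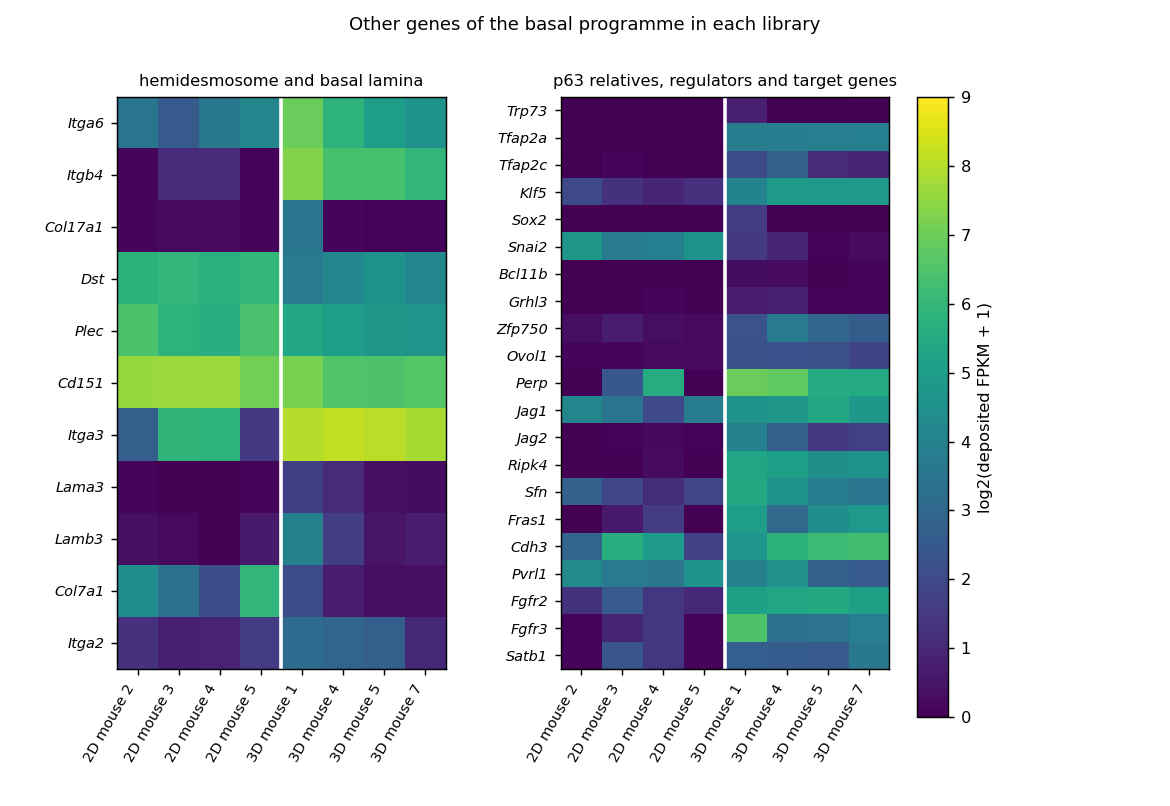
Levels as log2(deposited FPKM + 1) by colour, with genes of the hemidesmosome and basal lamina list and of the list of p63 relatives, regulators and target genes as lines, and the 8 libraries as columns, 2D left of the white bar. Itgb4 and Ripk4 are strong in all 4 3D libraries, whereas Col17a1 stands out in 3D mouse 1 alone (10.5 FPKM there and at most 0.177 FPKM elsewhere).

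Markers of other cells that gonadal fat can hold are given beside these values, and their part in them was not tested. The epididymis, which lies beside this fat in males and has its own basal cells, was covered by 14 listed genes, 9 of which were above 0 in some library. Of these, 1 rose (Spink8), 0 fell and 8 did not pass (median log2 difference 0.07). Their summed level was 0.414 to 0.844 FPKM in 2D, 12.9 FPKM in 3D mouse 1 and 18.3 to 61.6 FPKM in the other 3D libraries. Most of that sum was Spink8, at 4.64, 18, 21.8 and 61.1 FPKM in mice 1, 4, 5 and 7. A sum without Spink8 was made after the values were seen. It was 8.23 FPKM in 3D mouse 1, 0.262 to 0.931 FPKM in the other 3D libraries and 0.288 to 0.844 FPKM in 2D. Among the 3D libraries mouse 1 was thus the lowest with Spink8 and the highest without it. Crisp1, a secretory protein gene of the epididymis, was at 4.21 FPKM in 3D mouse 1 and at most 0.439 FPKM elsewhere. Adam28 was at 2.57 and at most 0.4 FPKM, and Cst11 at 0.52 and 0 FPKM. These genes were named after their values were seen. Lcn5, Lcn9, Lcn12, Adam7 and Defb12 were at 0 in every library. The 9 mesothelial genes gave 2 that rose (Cdh1 and Krt19, which other epithelia share), 0 that fell and 7 that did not pass (median log2 difference -2.44), with sums of 303 FPKM in 3D mouse 1 and 397 to 455 FPKM in the other 3D libraries. Without Cdh1 and Krt19 the sums were 3.68 FPKM in 3D mouse 1 and 6.35 to 30.6 FPKM in the other 3D libraries, while Wt1 (1.4 FPKM) and Bnc1 (1.42 FPKM) had their highest 3D value in mouse 1. In 2D the sums over all 9 mesothelial genes were at most 31.3 FPKM in mice 2 and 5 and at least 925 FPKM in mice 3 and 4. Without Cdh1 and Krt19 they were 1.41 and 0.359 FPKM in mice 2 and 5. In mice 3 and 4, the 2D libraries with the most Krt14 and Krt15, they were 891 and 2383 FPKM. Of 4 endothelial genes tested 0 passed (median log2 difference -0.08, summed level 0.0405 to 0.115 FPKM in 3D). Of 5 macrophage genes Cd68 rose and 4 did not pass (median 0.01). Their summed level was 1.32 to 21.4 FPKM in 2D, 7.09 FPKM in 3D mouse 1 and 12.8 to 38.6 FPKM in the other 3D libraries. In 3D this was mostly Cd68 (6.66 to 32.3 FPKM) and Csf1r (0.409 to 8.13 FPKM). Ptprc was at most 0.0788 FPKM in 3D, and Adgre1 and Lyz2 were at 0 there. Lyz2 reached 19.6 FPKM in 2D mouse 2.

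For each of the 6 genes, the 3 genes with the most similar profile were found by the Euclidean distance between profiles over the 8 libraries, each centred on its mean on the log2 scale, among 13163 genes. For Trp63 these were BC064078 (0.4 log2 units), Krt14 (1.66) and Padi4 (1.75). BC064078, a transcribed pseudogene on chromosome 6, was at 117, 9.64, 0.32 and 0.786 FPKM in 3D (mice 1, 4, 5 and 7) and at 0 in 2D, values close to those of Trp63. For Krt5 they were the microRNA genes Mir1927 (0.46), Mir6357 (0.49) and Mir8117 (0.77), each at 0 outside the 3D library of mouse 1 and too short for a reliable FPKM. For Krt14 they were Shisa2 (0.57), Car12 (1.08) and Six2 (1.34). Krt15 and Krt6a were each among the nearest of the other (0.52), with Adra2c (0.58 to both), Fam183b (0.66, for Krt15) and Gm15987 (0.48, for Krt6a). The nearest to Krt17 were Slc28a3 (0.52), Tekt4 (0.55) and 1110017D15Rik (0.57). Of the pairs among the 6, Krt5 and Krt17 were farthest apart (5.59).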

How the data were processed

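RNA of 8 primary cultures was sequenced, 1 library per mouse and culture. The authors made strand-specific libraries and mapped the reads with TopHat to mm10 (per the submitters' processing notes), and the deposited values are FPKM per gene symbol computed by the authors with Cufflinks, without counts. How fragments shared by near-identical genes were divided is not given in the sources used here.

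The 6 genes, the gene lists and the tests were chosen with earlier results of these data known. Genes at 0 in every library (5484) were left out. The other 18862 were quantile normalized, converted to log2(FPKM + 1) and fitted with limma 3.58.1 (R 4.3.3) with an intensity trend and no covariates. Calls were made at an adjusted p of 0.05 (Benjamini-Hochberg). The 6 genes carry no test. The fit was tested on simulated data.

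Depth was estimated from 875 genes whose only transcript spans 3000 bases or more: 73% to 83.9% of their low values lay within 0.15 of whole fragments. Limits are 3 fragments per library, and ratios carry exact 95% Clopper-Pearson intervals on estimated fragments. Coordinates are from GENCODE M21 (GRCm38, the assembly of mm10), to which 95.6% of symbols matched.

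Named besides the 6 genes were the keratins with a mean of at least 1 FPKM in a culture, up to 2 genes per direction and basal list with the largest called differences and no overlap between cultures, and the 3 nearest profiles per gene. A few genes so selected are left out of the text and the plots. Others are said to be chosen after their values were seen, or stand in counts. Nectin1 was matched as Pvrl1. Flg and Muc16 were not analysed here.

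A mouse number names 1 animal, so it pairs the cultures of mice 4 and 5. Over 12577 genes the deviations from the culture means correlated at -0.05 in mouse 4 and -0.11 in mouse 5. The p-values of the main fit measure the spread between libraries of the same culture type. They treat all libraries as independent, although mice 4 and 5 gave both cultures.

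Alternatives were the values as deposited, a pseudocount of 0.1, a mean of at least 1 FPKM, no intensity trend, the mouse as a block, mice 4 and 5 alone, and each library left out.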

Additional observations from a re-analysis of the deposited data

Results flagged for a closer look

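Among 61 groups of 4 libraries with a maximum of at least 1 FPKM, 17 had a highest or lowest library set off from the others by more of the range of the group, on the log2(FPKM + 1) scale, than Dixon's limit allows. Chance flags about 1 in 20 groups, and groups of the same libraries are not independent. The 61 include genes chosen for their likeness to the basal genes, so that the number set off is not a test. In 12 of the 17 the library was the 3D library of mouse 1. Of these 12, 3 are basal genes and 6 were named for a profile like theirs. No cause was tested.

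The gap was 0.948 of the range for Krt5 (271 FPKM in that library), 0.85 for Krt15 (15.1 FPKM) and 0.847 for Krt6a (15.4 FPKM). Trp63, Krt14 and Krt17 were not set off by this measure. In the same library the gap was 0.959 for Krt13 (9.7 FPKM), 0.865 for Fxyd3 (771 FPKM), 0.86 for Krt23 (4.66 FPKM) and 0.867 for Six2 (34.2 FPKM). It was 1 for Mir1927, Mir6357, Mir8117, Adra2c and Fam183b, which were at 0 in the other 3D libraries.

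In 2D the library of mouse 4 stood highest, with a gap of 1 for Fxyd3 (1.09 FPKM), 0.937 for Krt7 (74.7 FPKM) and 0.854 for Krt19 (125 FPKM). In 3D the library of mouse 7 was the highest for Tagln (gap 0.855, 1.16 FPKM) and the lowest for Acta2 (gap 0.849, 0.387 FPKM), at levels far below those of 2D.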

How the results depend on the processing

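With the mouse as a replicate block, 0 genes were called higher and 0 lower in 3D, 0 and 0 of the 89 listed genes, in place of 4000 and 3823, and 32 and 13; 1 residual degree of freedom remained. Blocks with mice 4 and 5 exchanged in 3D, added after seeing the data, also gave 0 and 0, and 0 and 0. On mice 4 and 5 alone the counts were 1490 and 1122, and 13 and 6. Leaving out 1 library in turn gave 3393 to 4051 higher and 3204 to 3835 lower, and 28 to 33 and 10 to 14 of the listed genes. The other alternatives kept each of these counts within 1.5 times. Among the lists, the 3 risen simple keratins became 1 without 2D mouse 2 or 5 or 3D mouse 5 or 7, the 2 fallen basal surface genes became 1 without 2D mouse 2, 3 or 4 or 3D mouse 1, 4 or 7 or with no intensity trend, the 0 fallen suprabasal genes became 2 without 2D mouse 3 or with a pseudocount of 0.1 and 1 without 2D mouse 4, and the 0 risen myoepithelial genes became 1 without 2D mouse 2 or 3D mouse 4, on the values as deposited, with a pseudocount of 0.1 and when genes averaging under 1 FPKM were left out. The median difference of the 6 basal genes was 0.48 without the 3D library of mouse 1, 0.59 on mice 4 and 5 alone and 3.25 with a pseudocount of 0.1, which also moved Krt17 to 3.38. Depth limits the 2D values of Trp63, Krt5, Krt17 and Krt6a, each at or below 3 fragments.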

Other observations

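The 3D library of mouse 1 also stood alone in genes outside these lists, and those named here were chosen after their values were seen. Of the 75 genes more than 3 log2 units above each other 3D library, 73 matched the annotation and 58 of these have a transcript of 300 bases or more. After Krt5, the leading genes of that length were Sprr2f, which encodes a small proline-rich protein of the cornified envelope (123 FPKM in mouse 1, 0.825 in mouse 4, 0.172 in mouse 5 and 0 in mouse 7), and Adh7, an alcohol dehydrogenase of stratified epithelia (46.9, 0, 0.176 and 0 FPKM). The chemokine gene Cxcl12 was at 82.5, 2.1, 0.233 and 0.249 FPKM and the transferrin gene Trf at 1293, 64.8, 22.7 and 3.39 FPKM in the same order of mice. In 2D Cxcl12 was at 43.6 to 239 FPKM and Trf at 399 and 394 FPKM in mice 3 and 4 and at most 0.674 FPKM in mice 2 and 5, so that mouse 1 lay within the 2D range for Cxcl12. Dnah6 and Dnah9, which encode axonemal dynein chains of motile cilia, were at 11 and 11.5 FPKM in mouse 1 and at most 0.0536 and 0.232 FPKM in the other 3D libraries. Tekt4, a tektin of the axoneme and 1 of the genes nearest to Krt17, was at 6.73, 0.753, 1.25 and 0.416 FPKM. Esr1, the oestrogen receptor alpha gene, was at 22.9 FPKM in mouse 1 and at most 1.37 FPKM in the other 3D libraries. Whether these genes and the basal genes come from the same cells cannot be told from bulk RNA.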
